A study of Glycine max with 20 samples.

Results

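A stretch of soybean chromosome 13 was examined gene model by gene model for differences between a pair of near-isogenic lines. Its members are the gene models whose identifiers run from Glyma13g28010 to Glyma13g32000, where the number after the g orders the loci along the chromosome, and that had at least 10 reads in 2 or more libraries. Of 397 rows in this range, 301 met the read minimum, out of 40243 gene models that met it in the whole table. The members were chosen by position and by their read counts, and the borders of the stretch with the measured line differences already known, so the density of differences along it is a description and not a test.

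The data are RNA-seq read counts from soybean leaves, in 20 libraries that cover 2 genotypes, 5 times and 2 biological replicates of each combination. One genotype, rag2, is labelled susceptible to aphids and the other, Rag2, resistant. Leaves were labelled as without aphids at 0 h and as infested at 4, 8, 24 and 48 h. The columns of the count table name the lines W and BC, and neither the labels nor the table pairs these names with rag2 and Rag2, so every difference is BC minus W, with no direction relative to resistance. No uninfested leaves stand beside the later times, so infestation and time of sampling cannot be told apart, and in whole leaves fewer cells of a type cannot be told apart from less RNA per cell.

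Near-isogenic lines are bred to share most of the genome and to differ around a selected locus, where flanking DNA of the donor parent is carried along. In such a region, gene models can differ in sequence, in copy or in regulation between the lines, and any of these can alter a read count. Rag2 is a soybean locus for resistance to the soybean aphid, a phloem-feeding insect, and is known to lie on chromosome 13. None of the 301 members could be paired with a gene name or product, so the members are described by identifier and position only.

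Libraries held from 7558768 to 38227436 reads in gene models, and the members took from 0.666% to 0.753% of them. Levels are CPM, read counts set relative to a library size scaled by the trimmed mean of M-values, and they are comparable between libraries for a gene model but not between gene models of different length. The summed CPM of the members was 7468 ± 723 in W and 7029 ± 678 in BC (mean ± SD, n = 10 libraries each). The second BC replicate at 0 h stood apart, with a mean correlation of 0.903 with the other libraries, and members there differed from the first replicate by a median of 0.635 on the log2 scale against 0.197 to 0.373 in the other pairs.

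Of the 301 members, 293 passed the filter on low counts and were tested. Their mean level had a median of 8.84 CPM and ran from 0.108 to 691 CPM over all members, and 220 members had at least 10 reads in all 20 libraries. The 8 members not tested (28510, 29070, 29170, 30020, 30330, 30810, 31660 and 31740 by locus number) did not reach the filter's minimum level in enough libraries. Just inside the read minimum, with 2 libraries each, Glyma13g28160.1 had 121 reads in all, Glyma13g28510.1 had 100 and Glyma13g29070.1 had 82. Just outside it, with 1 library each, Glyma13g28310.1 had 67 reads, Glyma13g28500.1 had 43 and Glyma13g28740.1 had 31.

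Averaged over the 5 times, 7 of the 293 tested members differed between the lines at an adjusted p below 0.05 in edgeR's quasi-likelihood test, which is 2.39% of them, against 0.213% of all 38918 gene models tested. Higher in BC were 4 of them (Glyma13g28200.1, Glyma13g29630.1, Glyma13g30140.1 and Glyma13g31850.1), beside 0.136% of all gene models, and lower in BC were 3 (Glyma13g29650.1, Glyma13g29730.1 and Glyma13g31020.1), beside 0.0771%. The log2 differences of these 7 members ran from -5.54 to 1.79, and each kept its sign at all 5 times. In 3 of them, Glyma13g29650.1, Glyma13g29730.1 and Glyma13g30140.1, no BC library overlapped any W library. Over all gene models, 0.0617% were higher in BC without overlap and 0.0514% were lower without overlap.

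**Figure D1:**
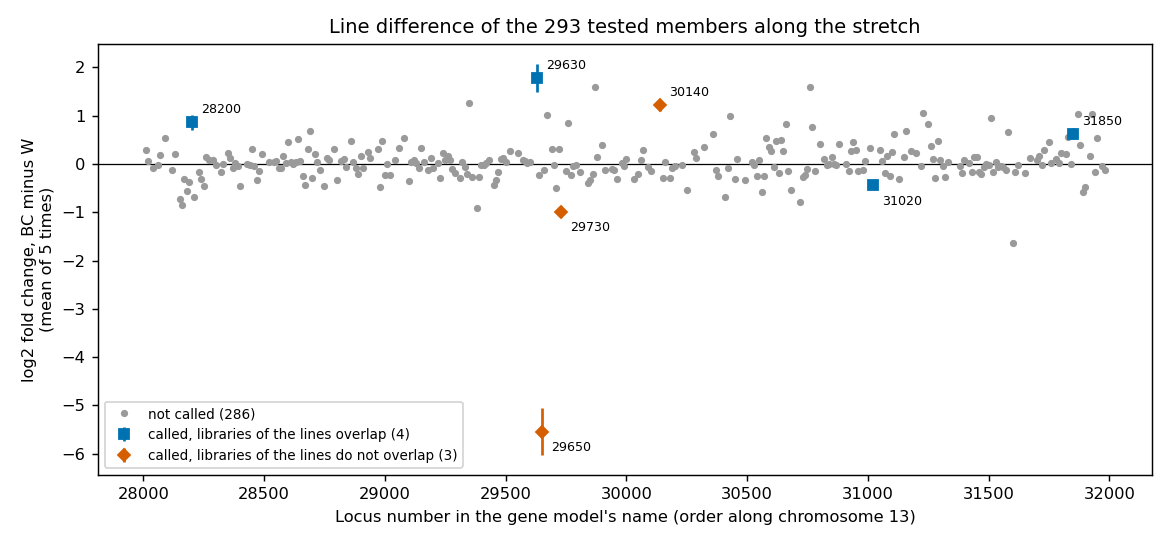
The log2 fold change (BC minus W, mean of 5 times) of the 293 tested members is plotted against the locus number in the gene model's name, with ± SE on the 7 that passed the adjusted threshold. The points lie on both sides of 0 along the whole stretch, and the 3 members whose libraries do not overlap between lines (diamonds) sit between loci 29650 and 30140.

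Glyma13g28200.1, the first member along the stretch that differed, was higher in BC. Its level was lowest at 1.96, median 3.14 and highest at 4.74 CPM in the W libraries, and lowest at 3.44, median 5.63 and highest at 8.29 CPM in the BC libraries. The lines overlapped, with 7 of 10 BC libraries above every W library. It stood at a log2 fold change of 0.86 ± 0.15 (SE, edgeR, adjusted p = 0.0250). The 3 tested members on either side of it, Glyma13g28170.1 to Glyma13g28240.1, all had lower means in BC, with log2 values from -0.68 to -0.17, and none passed the test.

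Glyma13g29630.1 had 2.83 CPM as its median in W, between 1.06 and 7.99, and 12.3 CPM in BC, between 5.00 and 18.0. The BC values lay above every W library in 8 of 10 cases, and the 2 exceptions were the second BC replicate at 0 h and the first at 8 h. On the log2 scale the difference was 1.79 ± 0.29 (edgeR, adjusted p = 0.0191). Among its neighbours, Glyma13g29600.1 on one side stood at 0.05 ± 0.20 and Glyma13g29640.1 on the other at -0.24 ± 0.11 on the log2 scale.

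Glyma13g29650.1 was close to absent from BC. In time order from 0 to 48 h, the pairs of W libraries had 1.23 and 2.07, 1.90 and 1.60, 1.54 and 2.45, 1.21 and 3.02, and 1.06 and 1.68 CPM. The pairs of BC libraries had 0 and 0.143, 0 and 0.207, 0.126 and 0.0890, 0 and 0.0249, and 0 and 0 CPM in the same order. All W libraries therefore lay above all BC libraries, and 5 of 10 BC libraries had no read.

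Summed over libraries, Glyma13g29650.1 had 357 reads in W and 8 in BC, a W to BC ratio of 39.9 after scaling for library size (95% interval 20.0 to 93.1, exact Poisson, counting error only). The edgeR log2 fold change was -5.54 ± 0.49 (adjusted p = 7.95e-05), a value that depends in part on how the model treats the libraries at 0. Uninfested leaves had 106 reads in W and 1 in BC, a ratio of 35.6 (6.25 to 1418). The ratio was 22.6 (6.07 to 189) from 89 and 2 reads at 4 h. It was 20.4 (7.51 to 77.4) from 54 and 4 reads at 8 h, and 153 (26.7 to 6108) from 82 and 1 reads at 24 h. At 48 h there were 26 reads in W and 0 in BC, so that BC was at least 8.98-fold lower against a floor of 3 reads over the group. The intervals of the 4 ratios overlap one another.

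Glyma13g29650.1 was also the single member that differed at 1 time taken alone, at 24 h (edgeR, log2 fold change -6.67 ± 0.98, adjusted p = 0.0391). This call at 24 h rests on 1 BC read and held in 10 of 26 alternatives, among them 5 of the 20 that left out 1 library, with an adjusted p of up to 0.589 (edgeR). The neighbours on either side had reads in both lines and did not pass the test. Glyma13g29640.1 had a mean of 16.0 CPM in W and 13.6 in BC, and Glyma13g29660.1 had 52.9 in W and 48.6 in BC, a log2 difference of -0.13 ± 0.08.

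Glyma13g29730.1 was lower in BC. Its level was lowest at 9.66, median 12.6 and highest at 14.8 CPM in W, and lowest at 4.65, median 6.37 and highest at 7.92 CPM in BC. The lowest W library therefore exceeded the highest BC library. The log2 fold change was -0.98 ± 0.10 (edgeR, adjusted p = 2.82e-04), with a 95% interval from -1.21 to -0.76, and W was 1.98-fold higher. The time-by-time log2 values were -1.20, -1.05, -0.66, -0.90 and -1.11 at 0, 4, 8, 24 and 48 h, each with an SE of 0.23 or 0.24. The neighbours Glyma13g29720.1 (0.32 ± 0.21) and Glyma13g29750.1 (-0.14 ± 0.12) did not pass the test.

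Glyma13g30140.1 had the opposite direction. Its level was lowest at 2.74, median 3.77 and highest at 4.88 CPM in W, and lowest at 6.10, median 8.97 and highest at 12.6 CPM in BC. Every BC library lay above every W library. The log2 fold change was 1.22 ± 0.12 (edgeR, adjusted p = 1.19e-04, 95% interval 0.97 to 1.48), or 2.33-fold. From 0 to 48 h the time-by-time values were 1.35, 0.81, 1.38, 1.00 and 1.57, with SE from 0.26 to 0.28. On one side Glyma13g30100.1 stood at -0.14 ± 0.12, and on the other Glyma13g30150.1 at -0.29 ± 0.35, the latter from under 1 CPM in both lines.

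Glyma13g31020.1 had the smallest difference of the 7. In W it was lowest at 38.7, median 41.6 and highest at 51.0 CPM, and in BC lowest at 26.6, median 30.8 and highest at 42.6 CPM. The highest BC value came from the second replicate at 0 h, and the other 9 BC libraries lay below every W library. Its log2 fold change was -0.43 ± 0.08 (edgeR, adjusted p = 0.0438). At 0 h alone it was -0.11 ± 0.18.

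Glyma13g31850.1 was the last along the stretch and the one with the most overlap. Its W libraries were lowest at 3.88, median 4.86 and highest at 9.20 CPM, and its BC libraries lowest at 5.39, median 7.16 and highest at 24.9 CPM, with 2 of 10 BC libraries above every W library. Within each time, however, both BC libraries lay above both W libraries. Averaged over times, the difference was 0.63 ± 0.12 on the log2 scale (edgeR, adjusted p = 0.0479). The W values above 9 CPM and the BC values above 13 CPM were all at 8 h, a time course described further on.

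**Figure D2:**
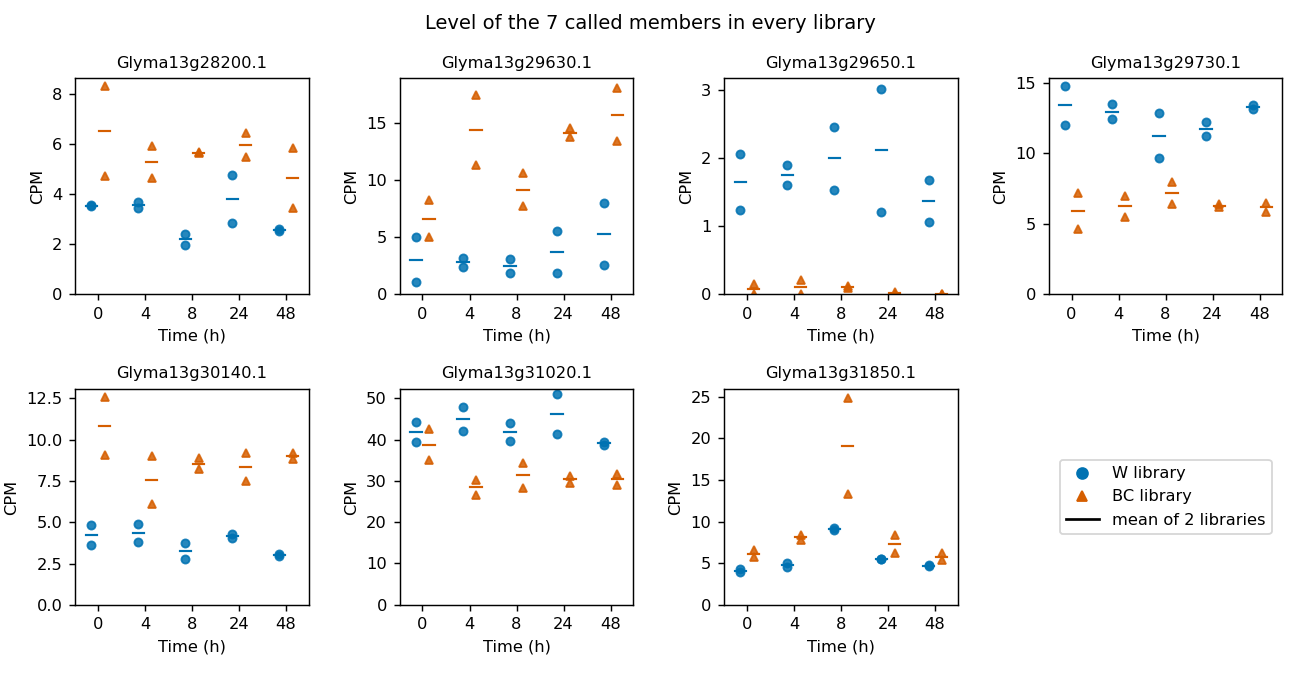
The level (CPM, linear axis from 0) of the 7 members that differed between the lines is plotted by time, 1 panel a member, with circles for W libraries, triangles for BC libraries and bars for the mean of 2 libraries. Circles and triangles are fully apart for Glyma13g29650.1, Glyma13g29730.1 and Glyma13g30140.1, and overlap across times for the other 4.

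The 7 calls did not hold equally well when the analysis was altered. Glyma13g29650.1, Glyma13g29730.1 and Glyma13g30140.1 passed the threshold in all 26 alternatives, 20 of which left out 1 library each. Their log2 values ranged from -6.30 to -4.73, from -1.12 to -0.93 and from 1.09 to 1.27. Glyma13g29630.1 passed in 18 of 26 (largest adjusted p = 0.255, edgeR or the other tools run), Glyma13g28200.1 in 10, Glyma13g31020.1 in 7 and Glyma13g31850.1 in 5, with no change of sign. Leaving out 1 library moved the count of 7 to between 3 and 18, with 18 reached without BC 0 h replicate 1, which leaves the replicate that stood apart alone in its group. The 3 that always passed span loci 29650 to 30140, a run of 34 tested members counted from the first to the last.

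Between the members that differed lay long runs that did not pass the test. From the start of the stretch to Glyma13g28200.1 there were 13 tested members without a call, and from there to Glyma13g29630.1 there were 111. In the run of 111 the median absolute log2 difference was 0.118, below the 0.134 of the whole table. For 98 of its members the 95% interval of the difference averaged over times lay within 2-fold either way. A single member, Glyma13g29640.1, separated Glyma13g29630.1 from Glyma13g29650.1, and 6 lay between that and Glyma13g29730.1.

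Beyond Glyma13g29730.1, 25 tested members without a call led to Glyma13g30140.1, with a median absolute log2 difference of 0.145. The next 60, up to Glyma13g31020.1, had a median of 0.251 and included 12 with an unadjusted p below 0.05. Another 60 up to Glyma13g31850.1 had 0.162, and the last 10 had 0.437, of which 7 had an interval within 2-fold.

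In bins of 400 locus numbers, 3 of the 7 differing members fell in loci 29610 to 30000, where 29 were tested and the median absolute log2 difference was 0.229. Loci 28410 to 29600, 3 bins with 33, 30 and 32 tested members, held no call and had medians of 0.121, 0.118 and 0.113. The highest median, 0.269, was in loci 30410 to 30800, where none of 31 passed the test but 10 had an unadjusted p below 0.05. The other bins held 1 call each, apart from loci 31210 to 31600, which held none of 32.

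**Figure D3:**
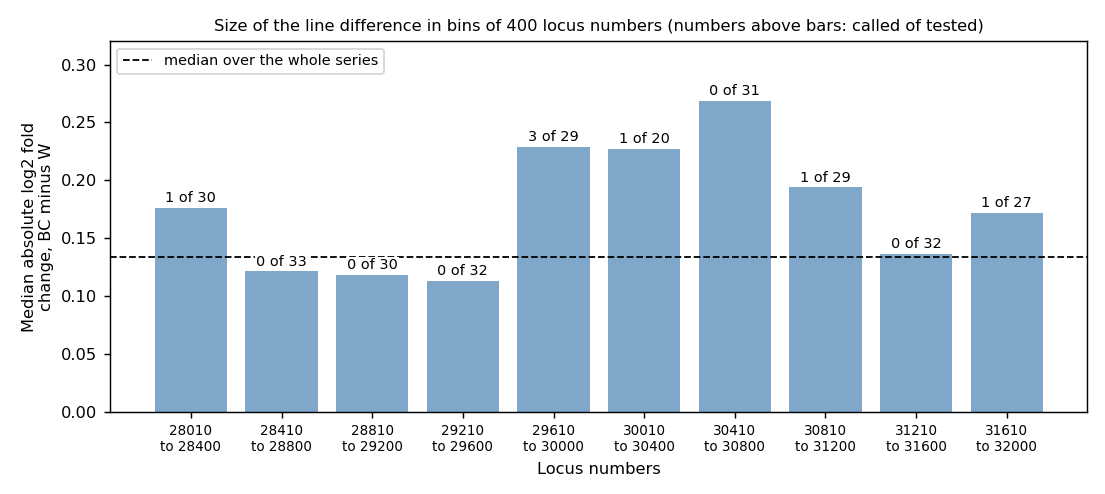
Bars show the median absolute log2 fold change between the lines of the tested members in each bin of 400 locus numbers, with the number that passed the threshold of those tested above each bar and the median of the whole series (0.134) dashed. The 3 bins from 28410 to 29600 lie below the dashed line, and the bin from 30410 to 30800 is the highest without holding a call.

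The stretch as a whole was balanced between the lines. Of the 293 tested members, 147 had a higher and 146 a lower fitted level in BC, and the median log2 difference was 0.01. An unadjusted p below 0.05 was found for 49 members, 16.7%, against 9.11% of all gene models, and 11 members, 3.75%, differed by more than 1 on the log2 scale, against 2.79%. A difference of the same sign at all 5 times was found for 32 members, 10.9%, against 5.81% in the whole table.

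For most members that did not pass the test, the data bound the difference averaged over the 5 times. Differences at single times were not bounded in this way. Of these 286 members, 238 had a 95% interval within 2-fold either way, with a median level of 12.6 CPM. The other 48 had intervals that reached 2-fold, with a median level of 1.29 CPM, and in 18 of these the interval did not cross 0. The median SE of the log2 difference was 0.339 for the 32 tested members under 1 CPM, 0.188 for the 120 from 1 to 10 CPM, 0.120 for the 129 from 10 to 100 CPM and 0.146 for the 12 over 100 CPM. In the same classes the median absolute log2 difference was 0.446, 0.251, 0.105 and 0.212, and calls numbered 1, 5, 1 and 0. The difference was smallest from 10 to 100 CPM and largest under 1 CPM, and the part of read level in the medians of runs and bins was not tested.

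The largest differences that did not pass the test were in members with scattered libraries. Glyma13g31600.1 stood at -1.63 ± 0.60 (edgeR, adjusted p = 0.491), with W libraries from 0.174 to 10.7 CPM and BC libraries from 0.122 to 8.71. Glyma13g29870.1 stood at 1.60 ± 0.43 (adjusted p = 0.303) and Glyma13g30760.1 at 1.60 ± 0.53 (adjusted p = 0.458), both under 2 CPM on average in either line. Glyma13g29350.1 (1.26 ± 0.47) and Glyma13g31230.1 (1.06 ± 0.58) completed the 5 largest. The lines overlapped in all of them.

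The 5 members with the highest mean CPM that did not pass were bounded more closely. Glyma13g28180.1 had 829 ± 455 CPM in W and 553 ± 268 in BC (SD, n = 10), a log2 difference of -0.57 with a 95% interval from -1.11 to -0.02. Glyma13g30560.1 had 305 ± 158 and 216 ± 120 CPM, a difference of -0.59 (-1.14 to -0.03). Both intervals reach past 2-fold at one end and close to 0 at the other, and the adjusted p-values in edgeR were 0.542 and 0.537. Glyma13g30950.1 stood at 0.29 (-0.02 to 0.61), Glyma13g28830.1 at 0.10 (-0.21 to 0.41) and Glyma13g31430.1 at -0.17 (-0.44 to 0.10), all within 2-fold.

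A few members lay near the threshold and were chosen for mention after their values were seen. Glyma13g30680.1 had 28.8 ± 4.88 CPM in W and 19.9 ± 4.23 in BC, a log2 difference of -0.54 ± 0.11 (edgeR, adjusted p = 0.0969). Glyma13g31870.1, the tested member next to Glyma13g31850.1, had 1.16 ± 0.509 and 2.55 ± 1.93 CPM, a difference of 1.04 ± 0.22 (adjusted p = 0.10). Both passed in DESeq2, as did Glyma13g30410.1, Glyma13g30430.1 and Glyma13g29870.1.

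No test of a step was made at the ends of the stretch, and none of the 3 tested gene models on each side of either border passed the line test. The first member, Glyma13g28010.1, had 37.5 ± 4.66 CPM in W and 45.9 ± 5.98 in BC, a log2 difference of 0.29 ± 0.08 (edgeR, adjusted p = 0.345). The 3 tested gene models just before it, Glyma13g27960.1, Glyma13g27970.1 and Glyma13g28000.1, stood at 0.01, -0.09 and 0.00. The next tested members inside, Glyma13g28020.1 and Glyma13g28040.1, stood at 0.06 and -0.08. The last tested member, Glyma13g31980.1, stood at -0.12 ± 0.18, and the 3 just after, Glyma13g32010.1, Glyma13g32020.1 and Glyma13g32030.1, at 0.03, 0.14 and 0.47. Inside the same end, Glyma13g31950.1 and Glyma13g31970.1 stood at 0.53 and -0.03.

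On either side of the stretch the share of members that differed was higher. From Glyma13g24010 to Glyma13g28000, 21 of 266 tested members, 7.89%, passed the same test, 18 of them higher in BC and 3 lower. From Glyma13g32010 to Glyma13g36400, 11 of 312, 3.53%, passed, 6 higher and 5 lower, and on the rest of chromosome 13 it was 1 of 1819, 0.055%. The median absolute log2 differences were 0.171 in the stretch, 0.190 before it, 0.174 after it and 0.140 on the rest of the chromosome. The borders were drawn with these values known, and no test of the shares was made.

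At single times, with 2 libraries a line, almost no member passed the test. None was called between the lines at 0, 4, 8 or 48 h, where 0.018%, 0.0308%, 0.0257% and 0.0154% of all gene models were, and 1 was called at 24 h, beside 0.0308%. Unadjusted p-values below 0.05 numbered 61, 22, 51, 16 and 28 of the 293 tested members from 0 to 48 h. Over all gene models the shares were 13.1%, 4.16%, 13.2%, 2.83% and 8.82% in the same order. The comparison at 0 h includes the BC replicate that stood apart. In limma voom with library weights the members numbered 22, 13, 46, 32 and 65 instead. DESeq2 called 2, 0, 6, 1 and 3 members at these times, and limma voom called 3 at 48 h and none at the other times. Shares over all gene models were not recorded for these 2 tools, so their counts have no background beside them.

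No member had a line difference that changed over time at an adjusted p below 0.05 (edgeR, joint test of 4 differences of response, smallest adjusted p = 0.597), nor did any of the gene models tested, 0%. There were 25 of the 293 tested members with an unadjusted p below 0.05 in this test, beside 8.02% of all gene models. DESeq2 called 3 members, with no share over all gene models recorded beside them. For the 7 members that differed on average, the adjusted p of the interaction lay between 0.65 and 0.87. With 2 libraries per line and time, this does not show that their differences were constant.

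**Figure D4:**
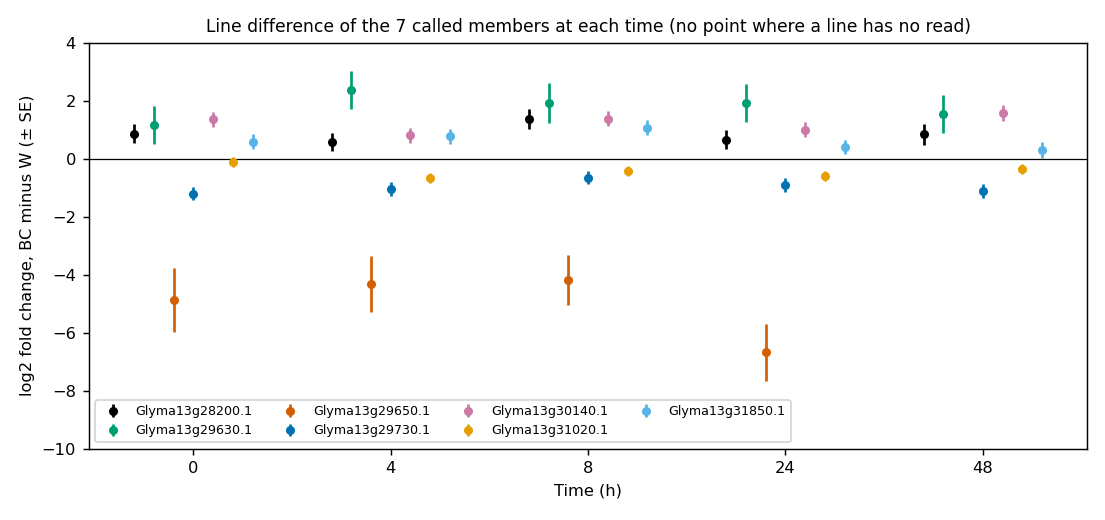
The log2 fold change (BC minus W, ± SE) of the 7 members that differed on average is plotted at each time, with no point at 48 h for Glyma13g29650.1, which had no BC read there. Each member stays on one side of 0 at every time plotted, and Glyma13g31020.1 comes nearest to 0, at -0.11 at 0 h.

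Differences over time used a contrast that did not enter the choice of the stretch. At 4 h, 4 members differed from 0 h averaged over lines, 1 higher and 3 lower, which is 1.37% beside 1.64% of all gene models (1.06% higher and 0.583% lower). At 8 h, 17 members differed, 8 higher and 9 lower, 5.8% beside 3.93% (1.87% and 2.05%). None differed at 24 h, where 0% of all gene models did, and none at 48 h, where 0.0257% did. Of the 293 tested, 27 members at 24 h and 33 at 48 h had an unadjusted p below 0.05. Over all gene models the shares with such a p were 8.99% and 11.3%. DESeq2 called 0 members at both of these times. The 4 contrasts share the 0 h libraries, among them the BC replicate that stood apart. Without BC 0 h replicate 1 the counts at 4 and 8 h were 46 and 51, and the lowest counts with another library left out were 1 and 6.

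The members that differed from 0 h were picked on the average of both lines, so counts over them describe the choice. The 4 libraries at 8 h did not overlap the 4 at 0 h in 13 of the 17, beside 7.37% of all gene models, and those at 4 h did not overlap in 4 of 4, beside 6.42%. The lines could contribute unequally to that average. Glyma13g30770.1 went from 12.8 to 0.881 CPM in W and from 4.47 to 4.21 CPM in BC between 0 and 8 h (interaction, edgeR, adjusted p = 0.597).

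Glyma13g28630.1 had the smallest adjusted p among the members in both of these contrasts. In time order, its pairs of W libraries had 70.3 and 75.1, 13.8 and 13.6, 13 and 11.7, 43.5 and 39.1, and 66.8 and 37.2 CPM. Its pairs of BC libraries had 43.0 and 33.6, 22.8 and 14.5, 14.6 and 20.7, 48.6 and 56.7, and 49.7 and 39.3 CPM. The level was thus low at 4 and 8 h in both lines, without overlap with 0 h. At 24 h both BC libraries were above their 0 h values, and both W libraries remained below theirs. It fell by 1.72 ± 0.20 on the log2 scale at 4 h (edgeR, adjusted p = 8.64e-04) and by 1.84 ± 0.20 at 8 h (adjusted p = 9.87e-05), and the later times stood at -0.18 and -0.13.

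Glyma13g31850.1 rose at 8 h in both lines. It had 3.88 and 4.27 CPM in uninfested W leaves and 5.74 and 6.57 in uninfested BC leaves. These became 9.0 and 9.20 in W and 13.4 and 24.9 in BC 8 h into infestation. All 4 libraries at 8 h lay above all others of their own line. The log2 change was 1.4 ± 0.19 (edgeR, adjusted p = 4.48e-04), and at 24 h the means were 5.51 CPM in W and 7.30 in BC. The BC minus W difference was 1.07 ± 0.26 at 8 h and between 0.30 and 0.77 at the other times.

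Also higher at 8 h were Glyma13g28620.1, from 25.5 ± 1.59 to 39.7 ± 6.18 CPM (SD, n = 4), and Glyma13g30620.1, from 0.702 ± 0.299 to 4.58 ± 2.92 CPM. Their log2 changes were 0.63 ± 0.13 (edgeR, adjusted p = 0.0117) and 2.69 ± 0.56 (adjusted p = 0.0126). For Glyma13g30620.1 the highest library was the second BC replicate at 8 h with 8.94 CPM, and the other 3 at that time had from 2.96 to 3.37. Both members had no overlap between 0 h and 8 h.

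Lower at 8 h were Glyma13g28670.1, from 27.6 ± 9.31 to 6.36 ± 3.20 CPM, and Glyma13g31560.1, from 4.02 ± 0.700 to 1.41 ± 0.454 CPM (SD, n = 4). The log2 changes were -2.23 ± 0.34 (edgeR, adjusted p = 0.00152) and -1.52 ± 0.31 (adjusted p = 0.0108). At 4 h neither differed from 0 h, at -0.59 ± 0.32 and -0.07 ± 0.29. By 24 h the means were 25 and 3.61 CPM.

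The other members that differed at 4 h were Glyma13g30100.1, which rose by 0.92 ± 0.19 (edgeR, adjusted p = 0.0202), and Glyma13g30940.1 and Glyma13g31330.1, which stood at -1.46 ± 0.32 (adjusted p = 0.0345) and -1.05 ± 0.25 (adjusted p = 0.0477). Glyma13g30100.1 had from 2.57 to 4.69 CPM at 0 h and from 5.06 to 8.48 at 4 h. Glyma13g30940.1 had 22.1 CPM in the BC replicate at 0 h that stood apart and from 4.16 to 5.16 in the other 3 libraries at 0 h, against 2.37 to 3.41 at 4 h. Of the members named for their change over time, Glyma13g28630.1 at both times and Glyma13g28670.1 and Glyma13g31850.1 at 8 h passed in all 26 alternatives. At 8 h Glyma13g28620.1 passed in 24, Glyma13g31560.1 in 23 and Glyma13g30620.1 in 22 of 26. At 4 h Glyma13g30100.1 passed in 19, Glyma13g30940.1 in 12 and Glyma13g31330.1 in 7, the last without a call under the replicate block or DESeq2's size factors.

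**Figure D5:**
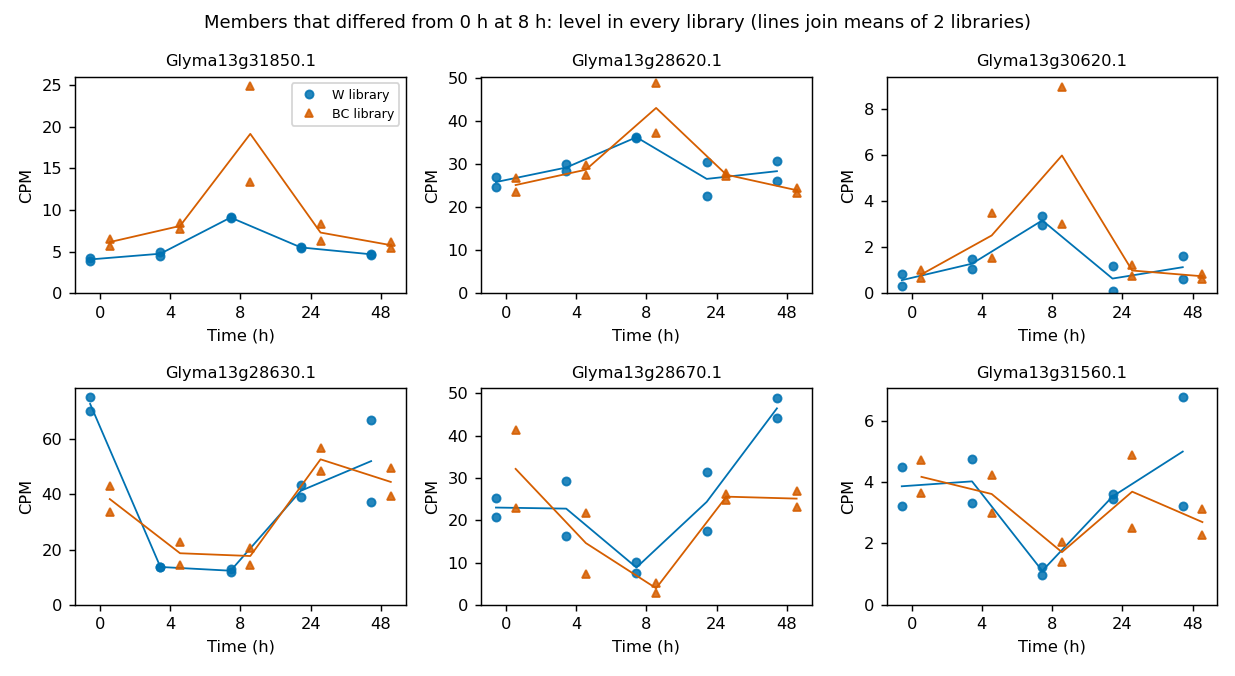
The level (CPM) of the 3 higher and 3 lower members with the smallest adjusted p at 8 h against 0 h is plotted for every library over time, with lines through the means of 2 libraries for W (circles) and BC (triangles). In the top row the level is highest at 8 h in both lines, and in the bottom row it is lowest at 8 h, with Glyma13g28630.1 as low already at 4 h.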

How the data were processed

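RNA was extracted from soybean leaves and sequenced on an Illumina HiSeq, per the labels' protocols. The deposited file holds read counts per gene model. The submitters' processing notes name Cuffdiff 1.3.0, HTSeq 0.5.3, TopHat 1.4.1 and edgeR, with no role given. Genome build, annotation and strand setting are not given in the sources used here, so a read where genes overlap cannot be assigned to one strand.

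From the table, 5 rows without a gene name were dropped (unassigned reads without a feature were 2.79% to 7.46% per library). All 20 libraries entered 1 edgeR 4.0.16 fit (R 4.3.3) with a mean for each of 10 groups, trimmed mean of M-values scaling, a filter on low counts by group, robust quasi-likelihood F tests (two-sided, 10 residual degrees of freedom, biological coefficient of variation 0.285) and Benjamini-Hochberg adjustment over 38918 gene models, with a threshold of 0.05. The procedure was tested on simulated data, with constant line differences set only in gene models above a minimum level. The simulation held no library that stands apart, so it does not cover that case or members of low level. Chromosome and locus number were read from the identifiers. All but 1 identifier of a member end in 1 after the point, the exception being Glyma13g28690.2.

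The members and lists were chosen with earlier results of these data known. Named are members called between lines, the 5 largest and 5 most read of those not called, up to 3 per direction and time contrast, and the members at the ends and at the read minimum. Alternatives were DESeq2 1.42.0, its size factors in edgeR, limma 3.58.1 voom with library weights, no filter, a replicate block, other read minimums and bin widths, and leaving out libraries. Lists by product could not be formed, since 0 members matched the gene table. Replicates are labelled biological. The main fit did not pair libraries by replicate number, and whether the numbers pair them could not be decided.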

Additional observations from a re-analysis of the deposited data

How the results depend on the processing

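All 7 members that differed on average kept their direction in every alternative run. Averaged over times, the count of 7 became 12 in DESeq2 (the 7 and 5 others), 4 in limma voom with library weights (all among the 7) and 4 without the 3 libraries that correlate least with the rest, BC 0 h replicate 2, BC 8 h replicate 2 and BC 4 h replicate 1, an alternative chosen after seeing the data (3 of them among the 7, the fourth being Glyma13g28240.1 at -0.51). It was 7 with DESeq2's size factors and 5 without the filter on low counts. With a replicate block it was 5, all among the 7, and at 4 and 8 h against 0 h it was 5 and 17. Of these 5 and 17, 3 and 16 were also called in the main fit. W and BC deviations at the same time correlated from -0.49 to 0.35, beside -0.49 to 0.51 over all 45 pairs of groups. Such a spread cannot decide whether the replicate numbers pair the libraries. The block moved no count by over 1.5 times.

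At single times, DESeq2 gave 2 members at 0 h, 6 at 8 h and 3 at 48 h, and 3 in the interaction, where edgeR gave 0. limma voom gave 3 at 48 h and 0 at 24 h. Against 0 h, the count of 4 at 4 h became 11 in DESeq2, 1 in limma voom and 1 without the 3 libraries named above. The count of 17 at 8 h became 26 in DESeq2 and 3 in limma voom. For the alternatives, shares over all gene models were not recorded, so these counts show only how far the main counts moved.

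Leaving out 1 library at a time gave 3 to 18 members for the average line difference, 0 to 81 at 0 h, 0 at 4 h and 48 h, 0 to 2 at 8 h, 0 to 1 at 24 h and 0 to 20 for the interaction. Against 0 h it gave 1 to 46 at 4 h, 6 to 51 at 8 h, 0 to 29 at 24 h and 0 to 47 at 48 h. The highest count came without BC 0 h replicate 1, which leaves the replicate that stands apart alone in its group, except between lines at 8 h (without BC 8 h replicate 1) and at 24 h. The count of 3 came without W 4 h replicate 1 or 2, W 8 h replicate 2, BC 4 h replicate 1 or BC 8 h replicate 2. The count of 6 came without W 8 h replicate 1, and the count of 1 at 4 h without W 0 h replicate 2, either W 4 h replicate or BC 4 h replicate 1. A lone library is assumed to vary like the other groups.

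A read minimum in 4 libraries left 291 members, and 1 read or more gave 363 rows, with 7 calls in both. The fullest bin held 3 calls of 200 locus numbers and 4 of 800. Members under 1 CPM had the largest median SE of the 4 level classes, and 14 of 32 tested had an interval within 2-fold. The part of depth in this was not tested.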

Other observations

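A few members had a large share of their CPM, summed over the 20 libraries, in 1 library. The share was 40.1% in BC 24 h replicate 1 for Glyma13g29790.1 (51 reads in all libraries), 38.7% in BC 0 h replicate 2 for Glyma13g29170.1 (125 reads) and 34.7% in W 48 h replicate 1 for Glyma13g28750.1 (333 reads). By CPM, the second BC replicate at 0 h was the highest of all 20 libraries for 78 of the 301 members and the lowest for 59. Below the read minimum, 34 rows of the stretch had no read in any library and 62 had at least 1 read, 6 of them with 10 reads in 1 library.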
